A study of Chlorella sorokiniana and Chromochloris zofingiensis with 12 samples.

Results

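The data described here are 79 small RNA tags of 19 to 21 bases that were each listed in only 1 of 2 unicellular green algae, Chlorella sorokiniana NIES-2168 or Chlorella zofingiensis ATCC30412. A tag is a distinct read sequence with its count. The members were chosen by measured values: a tag had to be 19 to 21 bases long, to stand among the 100 commonest tags of at least 1 library of its species, and to be missing from the table of the other species. They numbered 43 of the 166 tags listed for C. sorokiniana and 36 of the 165 listed for C. zofingiensis, out of 292 different tags in all. Being listed in 1 species is therefore what chose them and is not a result, and a tag missing from a table may still have been present below that table's ranks.

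Small RNA was sequenced from total RNA in 12 libraries, with 3 stress and 3 normal libraries per species. Stress cultures received more light, 100 µmol photons, together with 2% glucose from mid log phase, so that the light and the sugar cannot be told apart. Normal cultures stayed at 10 µmol photons, and both conditions used Bold's Basal Medium at 27 °C with shaking at 30 rpm. The labels do not say whether replicates came from separate cultures, so the p-values measure the spread between these libraries, which may be technical. The listed reads of a library, which are the sum over its 100 commonest tags and not its sequencing depth, ranged from 130737 to 191106 in stress and from 46518 to 406492 in normal libraries of C. sorokiniana. In C. zofingiensis they ranged from 81672 to 500007 in stress and from 259413 to 431955 in normal libraries. A value of 0 below means that a tag was outside the 100 commonest of that library, where the smallest listed share was 0.160% to 0.252% in stress and 0.0999% to 0.147% in normal libraries.

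Small RNAs of this length class include microRNAs and small interfering RNAs, which Dicer enzymes cut from double-stranded or hairpin precursors and which Argonaute proteins use to find matching transcripts. Libraries of total small RNA also hold pieces of ribosomal RNA, transfer RNA and other structured RNAs. Such pieces often share an end and differ at the opposite one, since the end of the parent RNA or a preferred cut fixes a side and trimming varies the other. In green algae, microRNAs have been studied mainly in Chlamydomonas reinhardtii. The RNAs from which the present tags came were not identified, and no genome or annotation was used. None of the 79 members shared a run of 12 bases with the 21 precursors of microRNAs that the authors predicted in their deposited tables.

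Members are named by rank of mean share within a species, Cs1 to Cs43 and Cz1 to Cz36. Every listed tag of both species, members included, ended in A. Because the adapter ligated at the 3′ end in such kits also begins with A, the last base was left out when sequences were compared. Its part in the tags' lengths was not tested. Tags of a species that shared a run of 12 bases were joined into overlap groups, which took in 53 of the members in 17 groups with at least 2 members each. In 9 of these groups, holding 23 members, all members had the same 3′ end, judged by the last 8 bases before the final A, and differed at the 5′ start. In 4 groups, holding 13 members, all had the same first 8 bases and differed at the 3′ end, and the other 4 groups were mixed. The 35 sequences below carry most of the results. Among those left unprinted are members withheld for a suspected likeness to bacterial sequence, which was not tested, and members whose overlap group no normal library listed. The organism each tag came from was not tested. They are written 5′ to 3′ with T for U, as deposited, and the capitals mark the bases that all printed tags of a group share. The first 3 sets, of C. sorokiniana, share their 3′ ends and lose bases from the 5′ side, as shown by groups A, F and B.
Cs1: acAGACCGAATGATTTTGACa
Cs2: cAGACCGAATGATTTTGACa
Cs5: AGACCGAATGATTTTGACa
Cs35: ccGTTGTTCTTACGATTTGTa
Cs9: cGTTGTTCTTACGATTTGTa
Cs10: GTTGTTCTTACGATTTGTa
Cs17: aaTCCCCAGTGCCGTAGTGTa
Cs7: aTCCCCAGTGCCGTAGTGTa
Cs3: TCCCCAGTGCCGTAGTGTa
Group E has the same form, and group C has the opposite one, with a fixed 5′ start.
Cs6: gCCGAAGCTGTGGGATATTa
Cs8: CCGAAGCTGTGGGATATTa
Cs4: CAAATGAAGTAAGGCGTAgga
Cs13: CAAATGAAGTAAGGCGTAga
Cs11: CAAATGAAGTAAGGCGTAa
In group D, tags that differ by 1 base at an end stood on opposite sides of the comparison, which is why they are shown.
Cs22: aaagacAACTCTCAACAACGa
Cs15: aagacAACTCTCAACAACGa
Cs18: aagacAACTCTCAACAACGga
Cs19: AACTCTCAACAACGgatata

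In C. zofingiensis, groups B, D, F and G lose bases from the 5′ side, group C has a fixed 5′ start with a shortened 3′ end, and the members of group A vary at both ends.
Cz6: ccCGTGTTCGGAAGATTTGTa
Cz5: cCGTGTTCGGAAGATTTGTa
Cz4: CGTGTTCGGAAGATTTGTa
Cz7: tGTCTGCCTCAGCGTCGGTAa
Cz13: GTCTGCCTCAGCGTCGGTAa
Cz24: aCCCCGAGTGCCGCAGTGTa
Cz15: CCCCGAGTGCCGCAGTGTa
Cz23: aTACTAAAGACCAATTGACa
Cz18: TACTAAAGACCAATTGACa
Cz1: CGCCTACCGTCGTGCTTCgga
Cz8: CGCCTACCGTCGTGCTTCga
Cz29: CGCCTACCGTCGTGCTTCta
Cz22: CGCCTACCGTCGTGCTTCa
Cz10: ccTTCGACCTGAGCTCAGGCa
Cz9: cTTCGACCTGAGCTCAGGCa
Cz2: TTCGACCTGAGCTCAGGCaa
Cz3: TTCGACCTGAGCTCAGGCa

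All members together held 9.66%, 9.82% and 9.46% of the listed reads in the stress libraries of C. sorokiniana, against 9.15%, 7.57% and 6.0% in the normal libraries. Their summed share was thus 2.07 percentage points higher in stress on average, and the conditions did not overlap, although normal replicate 1 lay just below the stress libraries. Without normal replicate 3 the difference was 1.29 points. The rise was not particular to these lengths, since species-specific tags of all lengths held 40.4% ± 2.4 in stress and 26.6% ± 3.7 in normal (SD, n = 3 each). The 16-base class went the other way, at 4.50% in stress and 5.65% in normal. In C. zofingiensis the members held 12.2%, 15.0% and 14.6% in stress libraries, against 13.0%, 13.7% and 12.4% in normal libraries. The mean difference was 0.901 points there, or -0.885 points on the authors' normalized signal, and the conditions overlapped, with stress replicate 1, the library of most listed reads, below all normal libraries. The C. zofingiensis difference was 1.76 points without stress replicate 1 and 0.359 points without stress replicate 2, and it was 0.580 points without stress replicate 3 and 0.570 points without normal replicate 3. No test was made of these sums, since the members were chosen with results known.

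**Figure D1:**
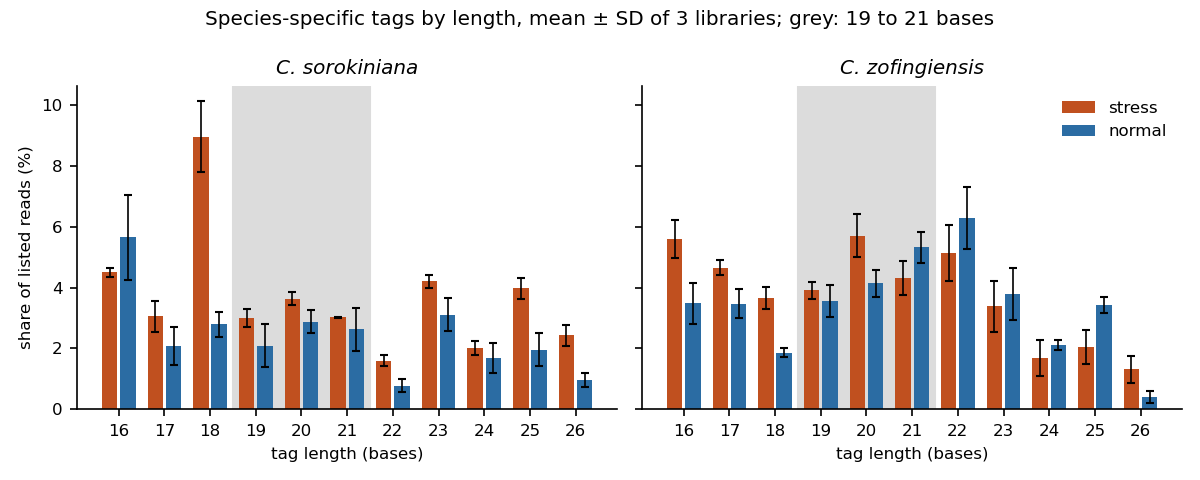
Share of listed reads (%, y axis) of species-specific tags by tag length in bases (x axis), with stress left of normal, where bars are means and error bars are SDs of 3 libraries and the grey band marks 19 to 21 bases. In C. sorokiniana the 18-base class just outside the band stands out, at 8.97% in stress against 2.78% in normal, and in C. zofingiensis the 21-base class is at 4.30% in stress against 5.32% in normal. The latter difference rests on Cz1, at 0.620% in stress against 3.74% in normal.

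By length, the 19-base members of C. sorokiniana averaged 2.99% ± 0.29 of listed reads in stress and 2.08% ± 0.71 in normal (SD, n = 3 each). Its 20-base members averaged 3.64% ± 0.21 in stress and 2.87% ± 0.39 in normal, and its 21-base members 3.01% ± 0.02 in stress and 2.62% ± 0.71 in normal. Only the 20-base class kept all stress libraries above all normal libraries. Just outside the rule, the 17 species-specific tags of 18 bases held 7.81%, 8.96% and 10.1% in stress libraries, against 3.05%, 3.00% and 2.31% in normal libraries. The 7 tags of 22 bases held 1.44%, 1.58% and 1.77% in stress, against 0.924%, 0.851% and 0.516% in normal. In C. zofingiensis the 20-base members averaged 5.71% ± 0.70 in stress and 4.14% ± 0.45 in normal, without overlap, while the 21-base members were lower in stress, at 4.30% ± 0.56, against 5.32% ± 0.51 in normal. The 21-base difference rests on Cz1, which averaged 0.620% in stress and 3.74% in normal and fell by more than the whole class. The 14 C. zofingiensis tags of 18 bases held 3.77%, 3.94% and 3.27% in stress, against 1.94%, 1.96% and 1.68% in normal, and its 8 tags of 22 bases held 4.09%, 5.57% and 5.76% in stress, against 5.11%, 6.96% and 6.78% in normal. The plot of shares by length shows these classes.

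The listing of the members differed between the conditions as a description. In C. sorokiniana 11 of the 43 members were listed in stress libraries alone, 15 in normal libraries alone and 17 in both, and 8 of these were listed in all 6 libraries. Over all 166 tags of that species the shares were 22.3% in stress alone and 25.3% in normal alone, against 25.6% and 34.9% of the members. In C. zofingiensis 8 of 36 members were listed in stress alone, 16 in normal alone and 12 in both, with 11 in all 6 libraries. Over all 165 tags there, 27.3% were listed in stress alone and 29.7% in normal alone, against 22.2% and 44.4% of the members. Single-library members numbered 15 in C. sorokiniana and 5 in C. zofingiensis.

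**Figure D2:**
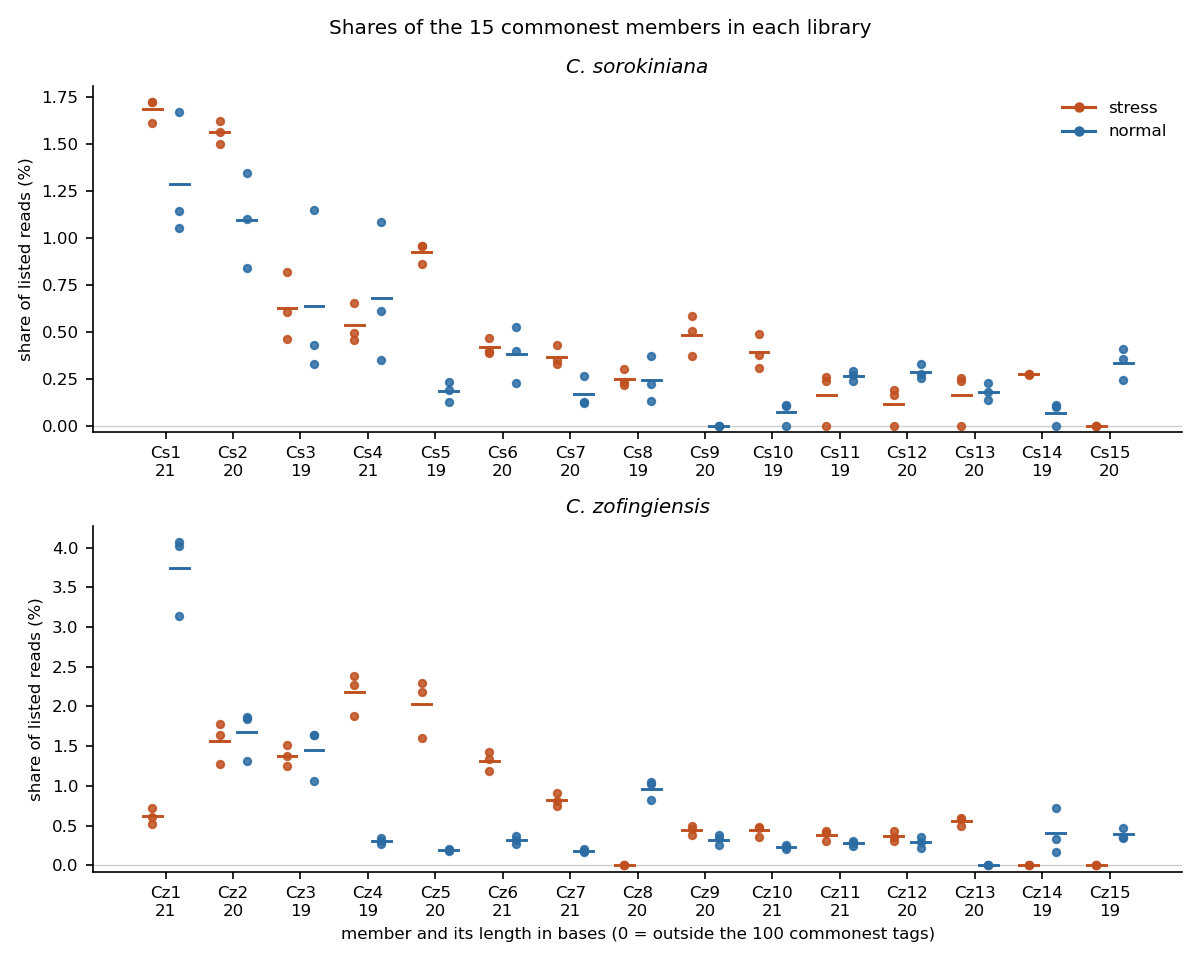
Share of listed reads (%, y axis) of the 15 commonest members of each species (x axis, with their length in bases), where each point is 1 library, stress left of normal, and lines are means of 3 libraries. Cs5 and Cs9 in C. sorokiniana and Cz4 to Cz7 in C. zofingiensis lie higher in all stress libraries, and Cz1 and Cz8 lie lower in all of them.

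The question for C. sorokiniana was which of the tags listed for it alone changed under strong light with glucose. Few did so while staying listed. Group A, whose tags end in a common run and are listed at every length from 16 to 26 bases, gave the commonest members and the rise of Cs5. Cs1, the 21-base tag, held 1.72%, 1.61% and 1.72% of listed reads in stress libraries, against 1.15%, 1.67% and 1.05% in normal libraries, and the conditions overlapped. Cs2, 1 base shorter at the 5′ side, held 1.62%, 1.501% and 1.57% in stress, against 1.10%, 1.35% and 0.841% in normal. Its stress values were all above the normal ones, but neither tag passed the test, with log2 fold changes of 0.14 ± 0.20 (SE) for Cs1 and 0.27 ± 0.19 for Cs2 (quasi-likelihood test of edgeR, Benjamini-Hochberg adjusted p = 0.677 and 0.385). Cs5, again 1 base shorter, held 0.861%, 0.957% and 0.961% in stress, against 0.190%, 0.235% and 0.129% in normal libraries. Each stress library was above every normal library, and Cs5 rose by 2.08 ± 0.24 on the log2 scale (edgeR, Benjamini-Hochberg adjusted p = 0.00175, which the replicate block turned into 0.00547). It was the only member called in both fits.

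The 11 tags of group A were also called higher in stress as a sum, at 1.09 ± 0.25 (edgeR on summed groups, Benjamini-Hochberg adjusted p = 0.0168). Beyond that, Cs5 gained on its longer neighbour Cs2. Within a library, the ratio of Cs5 to Cs2 was 0.530, 0.638 and 0.613 in stress, against 0.172, 0.175 and 0.153 in normal libraries. This ratio depends on no scaling between libraries, and its stress and normal values were far apart compared with the spread of either condition. The neighbouring ratio, of Cs2 to Cs1, was 0.943, 0.930 and 0.909 in stress, against 0.962, 0.807 and 0.798 in normal, and overlapped. Of the reads of the 11 tags in group A, Cs5 took 7.36%, 8.13% and 7.83% in stress, against 3.26%, 2.88% and 2.63% in normal, while Cs1 took 14.7%, 13.7% and 14.05% in stress, against 19.6%, 20.4% and 21.46% in normal. Those within-group shares of Cs1 also rest on tags of 22 and 25 bases that no normal library listed, so the ratio of listed tags is the firmer value. In group E, which also has a fixed 3′ end, the ratio of the shorter to the longer member, Cs8 to Cs6, overlapped between the conditions. It was 0.644, 0.588 and 0.563 in stress, against 0.709, 0.562 and 0.585 in normal.

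**Figure D3:**
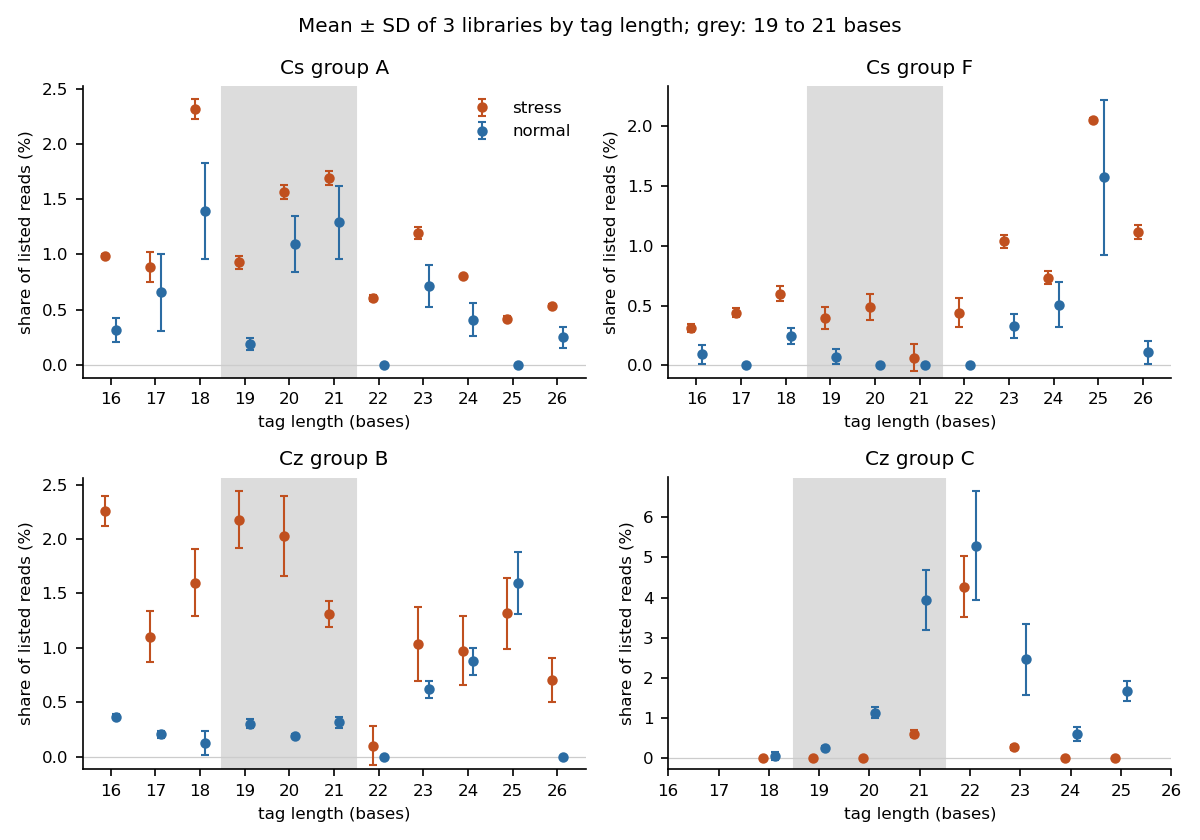
Share of listed reads (%, y axis) by tag length in bases (x axis) for 4 overlap groups, as means with SDs of 3 libraries, stress left of normal, and a value of 0 where no library listed a tag. In Cs group A the 19-base tag is at 0.926% in stress against 0.185% in normal, in Cz group B the 16-base to 21-base tags are higher in stress while the 25-base tag is at 1.32% against 1.59%, and in Cz group C the 21-base tags are at 0.620% in stress against 3.93% in normal.

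Group F of C. sorokiniana held Cs9, Cs10 and Cs35. Cs9 held 0.373%, 0.506% and 0.584% of listed reads in stress libraries and was listed in no normal library. It was at least 4.61-fold higher in stress, as a ratio of shares against the mean of the smallest listed shares of the normal libraries, and it was called (edgeR, Benjamini-Hochberg adjusted p = 0.00175, but 0.0914 with the replicate block). Cs10, 1 base shorter, held 0.310%, 0.379% and 0.491% in stress, against 0, 0.112% and 0.107% in normal libraries. Its values did not overlap between the conditions, and yet it was not called, with 1 normal library scored as 0 (log2 fold change 2.17 ± 1.99, edgeR, Benjamini-Hochberg adjusted p = 0.539). Cs35, 1 base longer than Cs9, was listed in stress replicate 3 alone, at 0.196%.

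Group B gave 3 members with the same 3′ end. Cs3 held 0.606%, 0.820% and 0.465% in stress, against 1.15%, 0.429% and 0.333% in normal, and was at -0.26 ± 0.55 on the log2 scale (edgeR, Benjamini-Hochberg adjusted p = 0.763). Cs7, with 1 more base at the start, held 0.352%, 0.431% and 0.329% in stress, against 0.265%, 0.122% and 0.131% in normal. All its stress values lay above the normal ones, without a call at 0.85 ± 0.39 (edgeR, Benjamini-Hochberg adjusted p = 0.183). Normal replicate 1, which had the highest Cs3 and Cs7 of its condition, decided this: without it Cs7 was called at 1.28 (edgeR, Benjamini-Hochberg adjusted p = 0.00819). The ratio of Cs7 to Cs3 was 0.580, 0.525 and 0.707 in stress, against 0.231, 0.285 and 0.394 in normal libraries, and so it was higher in each stress library. Here Cs7 gained on the shorter Cs3, whereas in group A Cs5 gained on the longer Cs2. These are single pairs, and the 22-base and 25-base tags of group A were listed in stress alone. Cs17, 1 base longer still, held 0.213%, 0.280% and 0.203% in stress, against 0.192%, 0 and 0 in normal.

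Groups C and E and the remaining members listed throughout were not called. Cs4, the longest member of the group with a fixed 5′ start, held 0.656%, 0.457% and 0.498% in stress, against 1.09%, 0.610% and 0.353% in normal, at -0.59 ± 0.45 (edgeR, Benjamini-Hochberg adjusted p = 0.445). Cs6 held 0.469%, 0.398% and 0.390% in stress, against 0.529%, 0.401% and 0.228% in normal, and Cs8 held 0.302%, 0.234% and 0.220% in stress, against 0.375%, 0.225% and 0.133% in normal. All 3 overlapped between the conditions, since normal replicate 1 was the highest and normal replicate 3 the lowest library of each. The log2 fold changes of Cs6 and Cs8 were -0.12 ± 0.34 for the first and -0.20 ± 0.45 for the second (edgeR, Benjamini-Hochberg adjusted p = 0.810 and 0.774). Cs11 and Cs13, the shorter tags of group C, were unlisted in stress replicate 2 and held up to 0.262% in the other stress libraries, against 0.142% to 0.291% in normal libraries.

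Group D held nearly identical tags on opposite sides of the comparison. Cs22 held 0.162%, 0.211% and 0.200% in stress and was unlisted in normal libraries, while Cs15, which is the same tag without the first base, was unlisted in stress and held 0.247%, 0.357% and 0.408% in normal libraries. Cs18, which starts as Cs15 does and has 1 more base before the final A, was likewise unlisted in stress and held 0.195%, 0.284% and 0.307% in normal. Cs19, which starts 5 bases after Cs15 and runs further, held 0.210%, 0.231% and 0.264% in stress and 0 in normal. As shares of listed reads, Cs22 was at least 1.81-fold and Cs19 at least 2.22-fold higher in stress, and Cs15 at least 1.83-fold and Cs18 at least 1.42-fold lower. Each of the 4 was called (edgeR, Benjamini-Hochberg adjusted p = 0.00175 for Cs22, Cs19 and Cs18, and 0.00189 for Cs15). With the replicate block none of them was, at 0.481, 0.421, 0.293 and 0.175 in that order, and Cs22 also lost its call without stress replicate 3 (edgeR, Benjamini-Hochberg adjusted p = 0.0542). Cs12, the remaining member of the group, held 0.168%, 0 and 0.191% in stress, against 0.255%, 0.279% and 0.333% in normal libraries, and its values did not overlap. It was not called, at -1.51 ± 1.89 (edgeR, Benjamini-Hochberg adjusted p = 0.677).

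The other members of C. sorokiniana were near the lower end of the lists. Cs14 held 0.279%, 0.273% and 0.279% in stress, against 0.0999%, 0.115% and 0 in normal libraries, without overlap and without a call (edgeR, Benjamini-Hochberg adjusted p = 0.557). Cs16 held 0.212%, 0 and 0 in stress, against 0.237%, 0.214% and 0.249% in normal, and was not called either (0.677). Cs20, of the same group, was unlisted in stress and held 0.414%, 0 and 0.206% in normal libraries. Of those that did not pass the filter, Cs21 was the highest in stress, at 0.215%, 0.405% and 0, and it was unlisted in normal libraries. The sequences of Cs14 and Cs21 are not printed, and whether they came from the alga was not tested.

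In all, 22 of the 43 members of C. sorokiniana passed the filter on low counts and 7 were called, of which 4 were higher in stress (Cs5, Cs9, Cs19 and Cs22) and 3 were lower (Cs15, Cs18 and Cs24). Over all 106 tested tags, 22.6% were called higher and 17.0% lower. Stress and normal values did not overlap for 14 members, 9 higher and 5 lower, where 66.0% of all tested tags did not overlap. Since 6 of the 7 called members were unlisted in a whole condition, and a tag passes the filter only where it is listed, their count supports no statement about the members as a set. Cs24 held 0.117%, 0.122% and 0.172% in normal libraries and was unlisted in stress, where the smallest listed shares averaged 0.185%, above the mean of Cs24, so that no fold can be given (edgeR, Benjamini-Hochberg adjusted p = 0.00175, which the replicate block turned into 0.495 and the smallest listed count in place of 0 into 0.454). With the replicate block 1 member was called, and without normal replicate 1 the count was 12. Among the 8 members listed in all 6 libraries, 1 was called higher and 0 lower, beside 10 higher and 11 lower among all 54 such tags of the table. Tested members had a median log2 fold change of -0.16, and all tested tags one of 0.07.

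The same question for C. zofingiensis gave more calls among tags that stayed listed in every library. Group B, with a fixed 3′ end and listed at every length from 16 to 26 bases, rose. Cz4 held 1.88%, 2.38% and 2.27% of listed reads in stress libraries, against 0.343%, 0.306% and 0.264% in normal libraries. Cz5, 1 base longer, held 1.61%, 2.19% and 2.29% in stress, against 0.179%, 0.198% and 0.207% in normal. Cz6, again 1 base longer, held 1.19%, 1.33% and 1.42% in stress, against 0.369%, 0.318% and 0.263% in normal. For all 3 tags every stress library stood several times above every normal library. The log2 fold changes were 2.47 ± 0.14 for Cz4, 3.00 ± 0.13 for Cz5 and 1.69 ± 0.16 for Cz6 (quasi-likelihood test of edgeR, Benjamini-Hochberg adjusted p = 3.95e-05, 3.95e-05 and 0.00015).

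The members of group B rose by different amounts. The ratio of Cz6 to Cz4 was 0.632, 0.561 and 0.626 in stress libraries, against 1.07, 1.04 and 0.995 in normal libraries. The ratio of Cz5 to Cz4 was 0.855, 0.919 and 1.01 in stress, against 0.521, 0.647 and 0.784 in normal. Neither ratio overlapped between the conditions, so that among Cz4, Cz5 and Cz6 the 20-base Cz5 gained most and the 21-base Cz6 least. The tags of other lengths in the group were not ranked. The commonest longer form of the group, a species-specific tag of 25 bases that starts 5 bases before Cz5, gives a base for these values. Cz4 stood to it in a ratio of 1.98, 1.63 and 1.47 in stress, against 0.180, 0.224 and 0.175 in normal libraries. Cz6 stood to it in a ratio of 1.25, 0.914 and 0.920 in stress, against 0.193, 0.233 and 0.174 in normal libraries. Cz4 thus exceeded the 25-base form in each stress library and Cz6 in stress replicate 1 alone, while both stayed far below it in each normal library.

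Group C, with a fixed 5′ start, held members that were lower in stress. Cz1, the commonest member of the species in normal libraries, held 0.527%, 0.721% and 0.613% in stress, against 3.13%, 4.07% and 4.02% in normal libraries. It fell by 2.96 ± 0.18 on the log2 scale, lower in every stress library (edgeR, Benjamini-Hochberg adjusted p = 3.95e-05). Cz8, 1 base shorter before the final A, was unlisted in stress and held 0.823%, 1.05% and 1.02% in normal libraries, at least 4.21-fold lower in stress as a share of listed reads (edgeR, Benjamini-Hochberg adjusted p = 4.27e-05). Cz22, shorter again by 1 base, was unlisted in stress and held 0.196%, 0.284% and 0.282% in normal, at least 1.11-fold lower. Cz29, which shares with Cz8 all but the base before the final A, held 0.153%, 0.155% and 0.212% in normal and was unlisted in stress, where the smallest listed shares averaged 0.229%, above the mean of Cz29, so that no fold can be given. Cz32 and Cz33, of 21 bases, were listed in normal replicate 3 alone, at 0.317% and 0.265%.

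Cz1 also fell relative to its own longer form. The commonest tag of group C has 22 bases and holds Cz1 without its final A, and the ratio of Cz1 to that tag was 0.155, 0.167 and 0.136 in stress, against 0.893, 0.726 and 0.772 in normal libraries. The conditions did not overlap in this ratio. Summed by length, the 22-base tags of the group held 4.28% ± 0.76 in stress and 5.29% ± 1.36 in normal libraries, while its 23-base tags held 0.274% ± 0.066 in stress and 2.47% ± 0.89 in normal (SD, n = 3 each). Relative to the 22-base form, then, both shorter and longer tags of group C were fewer in stress. In group B, Cz4 and Cz6 were more frequent relative to the 25-base form. Not all longer forms of group B behaved as that one, since its 26-base tag was listed in stress alone, at 0.475% to 0.845%.

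**Figure D4:**
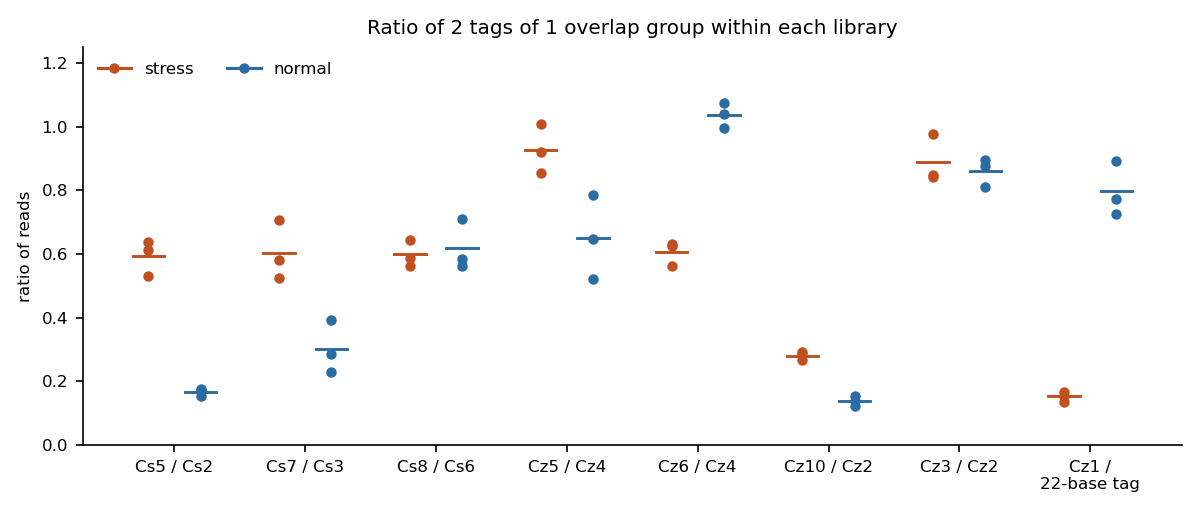
Ratio of the reads of 2 tags of 1 overlap group within each library (y axis) for 8 pairs (x axis), stress left of normal, where points are libraries and lines are means of 3. Cs8 over Cs6 and Cz3 over Cz2 overlap between the conditions, while Cs5 over Cs2 is at 0.594 in stress against 0.167 in normal and Cz1 over the 22-base tag is at 0.153 against 0.797.

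Group A of C. zofingiensis was abundant in both conditions. Cz2 held 1.27%, 1.78% and 1.64% in stress, against 1.87%, 1.84% and 1.31% in normal, and Cz3 held 1.25%, 1.51% and 1.38% in stress, against 1.64%, 1.65% and 1.06% in normal. Both overlapped, with log2 fold changes of -0.47 ± 0.18 for Cz2 and -0.44 ± 0.21 for Cz3 (edgeR, Benjamini-Hochberg adjusted p = 0.0756 and 0.132). Normal replicate 3, their lowest normal library, decided this, since without it both were called at -0.64 (edgeR, Benjamini-Hochberg adjusted p = 0.00486 for each). Cz2 and Cz3 were also called by edgeR among tags listed in all 6 libraries, at 0.0132 and 0.0199. With unlisted tags at the smallest listed count edgeR called both, at 0.0221 and 0.0421, and it called Cz2 without a filter, at 0.0387. Neither was called by DESeq2, at 0.173 and 0.272, or by edgeR with the replicate block, at 0.133 and 0.151. Scaled by library totals alone, Cz2 was at -0.09 and Cz3 at -0.07 (edgeR, 0.684 and 0.760). The size of their fall thus depended on the scaling. Cz10, which has 2 more bases at the start than Cz3, held 0.362%, 0.474% and 0.480% in stress, against 0.231%, 0.253% and 0.203% in normal. It was higher in each stress library and was called at 0.56 ± 0.15 (edgeR, Benjamini-Hochberg adjusted p = 0.0229). That call ended without stress replicate 2 or 3, at 0.0893 and 0.0661, and among tags listed in all 6 libraries, at 0.0656. Cz9 and Cz11 were not called, at 0.09 ± 0.19 for Cz9 and 0.05 ± 0.16 for Cz11 (edgeR, Benjamini-Hochberg adjusted p = 0.724 and 0.809). Cz9 held 0.377%, 0.497% and 0.461% in stress, against 0.379%, 0.338% and 0.252% in normal, and Cz11 held 0.300%, 0.429% and 0.401% in stress, against 0.286%, 0.303% and 0.249% in normal. Against Cz2 in the same library, Cz10 stood at 0.284, 0.266 and 0.293 in stress, against 0.123, 0.138 and 0.155 in normal, and Cz9 at 0.296, 0.279 and 0.282 in stress, against 0.203, 0.184 and 0.192 in normal. Both ratios were higher in each stress library, while that of Cz3 to Cz2, which differ at the 3′ end, was 0.978, 0.849 and 0.840 in stress, against 0.876, 0.896 and 0.811 in normal, and overlapped.

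Cz7 and Cz13, of group D, also rose. Cz7 held 0.753%, 0.915% and 0.815% in stress libraries, against 0.168%, 0.182% and 0.202% in normal libraries, and rose by 1.81 ± 0.14 (edgeR, Benjamini-Hochberg adjusted p = 7.14e-05). Cz13, 1 base shorter at the start, held 0.501%, 0.586% and 0.597% in stress and was unlisted in normal libraries, at least 3.83-fold higher as a share of listed reads (edgeR, Benjamini-Hochberg adjusted p = 3.95e-05). Both stood above every normal library in each stress library. The whole group, 23 tags with 42.9% to 54.0% of the listed reads in stress and 47.9% to 51.1% in normal libraries, was not called as a sum, at -0.15 ± 0.15 (edgeR on summed groups, Benjamini-Hochberg adjusted p = 0.367), and 14 of its tags were listed in both species. Cz12, of group E, held 0.306%, 0.353% and 0.431% in stress, against 0.216%, 0.356% and 0.293% in normal, and was at -0.04 ± 0.23 (edgeR, Benjamini-Hochberg adjusted p = 0.896).

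Other members were listed in 1 condition alone. Of those listed in normal libraries alone, Cz14 held 0.721%, 0.336% and 0.172%, Cz15 held 0.359%, 0.468% and 0.344%, and Cz18 held 0.270%, 0.335% and 0.315%. As shares of listed reads, Cz14 was at least 1.79-fold, Cz15 at least 1.71-fold and Cz18 at least 1.34-fold lower in stress. The bound of Cz14 rests on normal replicate 1, without which it was 1.11-fold. Their neighbours Cz24, with 0.243%, 0.197% and 0.147%, and Cz23, with 0.211%, 0.238% and 0.200%, and likewise Cz25 and Cz27, were below or near the smallest listed shares in stress, so that no fold can be given for them. All of these were called (edgeR, Benjamini-Hochberg adjusted p from 3.99e-05 to 0.00151). Of those listed in stress libraries alone, Cz16 held 0.628%, 0.264% and 0.257%, Cz17 held 0.297%, 0.371% and 0.373%, Cz20 held 0.238%, 0.305% and 0.326%, and Cz21 held 0.284%, 0.304% and 0.258%. Cz16 was at least 2.62-fold, Cz17 at least 2.37-fold, Cz20 at least 1.98-fold and Cz21 at least 1.92-fold higher in stress (edgeR, Benjamini-Hochberg adjusted p from 3.95e-05 to 0.00108). No tag of their overlap groups was listed in a normal library, and their sequences are not printed here. Whether they came from the alga or from another organism was not tested. Of the members that did not pass the filter, Cz26, at 0, 0.285% and 0.280%, and Cz28, at 0.220%, 0.300% and 0, were listed in stress alone, and Cz30, Cz31 and Cz36 in normal libraries alone, with at most 0.190%.

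**Figure D5:**
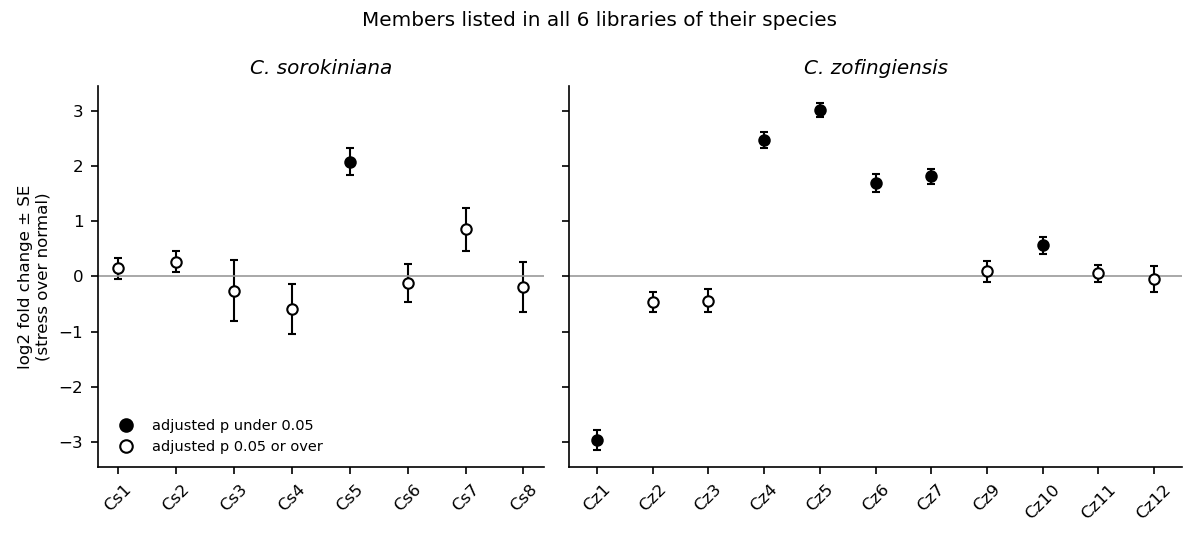
Fitted log2 fold change of stress over normal with its SE (y axis) for the members listed in all 6 libraries of their species (x axis), where filled points have an adjusted p under 0.05 and open points do not. Cs5 at 2.08 is the called member of C. sorokiniana, and in C. zofingiensis Cz4 to Cz7 and Cz10 are higher and Cz1 is lower at -2.96.

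In all, 27 of the 36 members of C. zofingiensis passed the filter and 21 were called, 10 higher and 11 lower in stress. Over all 115 tested tags, 29.6% were called higher and 27.0% lower. Stress and normal values did not overlap for 21 members, 10 higher and 11 lower, beside 73.0% of all tested tags. Of the called members, 15 were unlisted in a whole condition and had to differ once they passed the filter. With unlisted tags set to the smallest listed count of their library, Cz14, Cz16, Cz24, Cz25, Cz27 and Cz29 lost their calls, at adjusted p of 0.056, 0.126, 0.198, 0.211, 0.236 and 0.408 (edgeR, Benjamini-Hochberg), and Cz10 did so at 0.0744. Among the 11 members listed in all 6 libraries, where this does not apply, 5 were called higher (Cz4, Cz5, Cz6, Cz7 and Cz10) and 1 lower (Cz1), beside 10 higher and 9 lower among all 56 such tags. Tested members had a median log2 fold change of -0.44, and all tested tags one of 0.05. Scaling by library totals alone moved the median of all tested tags to 0.44 in C. zofingiensis and to 0.32 in C. sorokiniana. The fold changes given here were fitted with the TMM factors of edgeR and were not centred on these medians.

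Some members of one species have near relatives among those of the other. A run of 12 bases was shared with any tag of the other species by 13 of the 43 members in C. sorokiniana and 10 of the 36 in C. zofingiensis. These are 30.2% and 27.8% of the members, beside 45.8% and 43.6% of all listed tags. All listed tags include the 39 tags found in both tables, which share a run by definition. The rule left those out of the members, so the lower shares of the members are no result. Cs3 and Cz15, both of 19 bases, differ by T1C, C5G and T13C, with the base of Cs3 first and positions counted from 1 at the 5′ end. Cs3 overlapped between the conditions, while Cz15 was listed in normal libraries alone. Cs7 and Cz24 differ likewise, by T2C, C6G and T14C. Groups F of C. sorokiniana and B of C. zofingiensis end in the same 7 bases before the final A, and their members Cs9 and Cz4 are 4 edits apart. Both Cs9 and Cz4 were higher in each stress library than in each normal library of their species. Whether the response differed between the species was not tested, since the tables list tags chosen within each species.

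The median GC content of the members, without the final base, was 50.0% in C. sorokiniana and 56.7% in C. zofingiensis, against 50.0% and 58.8% of all listed tags. The first base was A in 32.6% of the members of C. sorokiniana and T in 25.6%, against 28.3% and 30.1% of its listed tags, and in C. zofingiensis it was C in 38.9% and G in 8.33% of the members, against 29.7% and 18.8% of its listed tags. These differences were not tested. Of the members, 67.4% in C. sorokiniana and 58.3% in C. zofingiensis lay wholly inside a longer listed tag, beside 68.1% and 59.4% of all listed tags. The motifs GTTCGA and GTTCAA, known from the T loop of transfer RNAs, were searched on both strands. GTTCGA stood in Cs39 alone, 2.33% of the members of that species against 1.205% of its tags, and GTTCAA in Cz34 alone, 2.78% against 1.21%. The motif TAGCTCAG, searched likewise, stood in Cs38 and in Cz20. That was 2.33% and 2.78% of the members of their species, against 3.01% and 6.67% of all listed tags. A CCA end, which mature transfer RNAs carry, was found in Cs24, Cs28, Cs43, Cz14 and Cz21, but only with the final A counted. Without that A, which may be of the adapter, each of them ends in CC. These were 6.98% of the members of C. sorokiniana and 5.56% of those of C. zofingiensis, against 4.22% and 6.67% of all listed tags. These matches are descriptions of letters and identify no RNA.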

How the data were processed

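The authors deposited, per species, a table of whole-number counts of reads per tag for 6 libraries, per the file headers, in which each library has 100 tags above 0. Beside the counts the authors deposited a normalized signal, which served as an alternative only. It was no plain scaling of libraries, since it changed shares within them. In C. sorokiniana it equalled the counts in stress replicate 3 and normal replicates 1 and 2, while every other library of both species totalled 237584. The first header line of the C. zofingiensis table was used, since a lower one repeats the names of the other species. RNA extraction with TRIzol and the NEBNext small RNA kit are per the labels' protocols. The submitters' processing notes name DESeq and the Arabidopsis build TAIR9, while trimming settings and aligner are not given in these sources. A further table's predicted energies, of a unit of its own, were not used, and only its precursor sequences were read.

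Shares are counts over the listed reads of a library. Stress was tested against normal within each species on all its tags with the quasi-likelihood test of edgeR 4.0.16 under R 4.3.3 (TMM, filterByExpr, robust, two-sided, Benjamini-Hochberg adjusted p under 0.05 called), and only members are reported. Scripts were tested on simulated data. For a tag unlisted in a whole condition, the fitted fold depends on the prior count, so a lower bound of the ratio of shares was computed instead, without a composition factor. Alternatives were RLE factors, library totals, no filter, DESeq2 1.42.0, tags listed in all 6 libraries, unlisted tags at the smallest listed count, summed overlap groups, the replicate block and leaving out each library. Replicate numbers are given by the labels. Deviations of same-numbered libraries of C. sorokiniana correlated at 0.54, 0.13 and 0.52 over 54 tags, so the block is given beside its calls. No 2 libraries of a group were duplicates, with chi-square values of at least 8.29 per degree of freedom. Named members are the 8 commonest per species, up to 10 called ones per direction without overlap, and those listed in all 6 libraries; others were chosen after their values were seen. The members and lists were chosen with earlier results of these data known. Software versions were Python 3.11.15, numpy 2.4.6, pandas 2.3.3 and matplotlib 3.10.9.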

Additional observations from a re-analysis of the deposited data

How the results depend on the processing

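RLE factors, library totals, no filter and DESeq2 left the count of called members at 7 in C. sorokiniana and at 21 or 22 in C. zofingiensis. Among tags listed in all 6 libraries 1 and 7 members were called. With the replicate block the counts were 1 and 6. Whether same-numbered libraries were paired is not known. Their deviations correlated at 0.54, 0.13 and 0.52 in C. sorokiniana and at 0.07, -0.05 and 0.17 in C. zofingiensis. With unlisted tags at the smallest listed count 16 members of C. sorokiniana were called. That filling sets values without spread, averaging 0.185% of listed reads in stress and 0.106% in normal libraries. The 16 include Cs32 to Cs35, each listed in 1 library alone, so the higher count is no added support. With tags summed over overlap groups, 6 groups that hold members were called in C. sorokiniana and 11 in C. zofingiensis. Leaving out 1 library gave 7 to 12 and 20 to 25. The difference in summed share ranged from 1.29 to 2.86 points and from 0.359 to 1.76 points when 1 library was left out. For C. zofingiensis it was 2.55 points over members listed in all 6 libraries and -0.885 points on the authors' normalized signal, and the cause was not tested. Over the 40 named members, 458 of 499 alternative values kept their side of the threshold, 33 lost the call and 8 gained it. No called value changed direction. Many of these members were named because they were called. Those unlisted in a whole condition kept their values of 0 in most alternatives, so the kept calls are no added support. The listing depth of 100 tags limits every value at 0.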
